A study of Penicillium oxalicum with 24 samples.

Results

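Of the 9832 genes of *Penicillium oxalicum* in the deposited table, 2 were followed: PDE_07585, annotated as a putative α-L-arabinofuranosidase, and PDE_08038, annotated as a putative exo-α-L-1,5-arabinanase. Their annotations come from supplementary tables of the study whose genes were selected on these libraries. PDE_07585 is annotated in a table built on Δ*clrB* against the wild-type, and PDE_08038 in one built on the wild-type on cellulose, so the results of each gene in that comparison are not independent evidence. Both passed the filter on low values, which kept 9176 genes. Their annotated transcripts are 963 and 1230 bases long.

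Arabinan, a side chain of pectin, is a polymer of L-arabinofuranose. Exo-arabinanases remove sugars stepwise from the end of the chain, and α-L-arabinofuranosidases cut off terminal arabinofuranose residues, in arabinan as well as on the xylan backbone of arabinoxylan. In *Aspergillus* species such genes are known targets of the arabinose and xylose regulators AraR and XlnR and of repression by the glucose repressor CreA.

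RNA-seq covered 8 groups of 3 libraries each, 24 in all. The wild-type strain 114-2 was pre-cultured for 22 h on 2% glucose and analysed after 4 h without carbon source, on 2% glucose or on 2% cellulose. A step of 2 h without carbon came before the glucose and cellulose media. The labels list no such step for the cultures without carbon source, whereas the methods of the study describe it as general. Strains lacking *amyR* (Δ*amyR*), *clrB* (Δ*clrB*), *creA* (Δ*creA*) or both *creA* and *clrB* (Δ*creA*-Δ*clrB*) were measured on 2% cellulose after the same preparation, as was a strain that lacks *creA* and overexpresses *clrB* from the *gpdA* promoter, Δ*creA-gpdA*(p)::*clrB*. No mutant was measured on glucose or without carbon. ClrB is an activator of cellulase genes, CreA the carbon catabolite repressor and AmyR the activator of amylase genes. The strain list of the study describes each mutant as the wild-type with the named changes, and by its methods *creA* was deleted in the wild-type, in a Δ*clrB* strain and in a strain with *clrB* under the *gpdA* promoter. The study screened single transcription factor deletions in a strain without *pku70*. It states that the mutants of *clrB*, *creA* and *amyR* studied further were made in the wild-type strain. How many transformants stand behind each strain is not given in the sources used here.

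The groups averaged 7515861 to 8452897 reads on genes per library, and between replicates counts varied by about 19.9% (the square root of the common dispersion). The mutants matched their labels: *clrB* (PDE_05999) had 1 to 3 reads in each of the 6 libraries of strains without it, against 1930 to 2009 in the wild-type on cellulose. The *creA* gene (PDE_03168) had 0 to 2 reads in each of the 9 *creA*-deleted libraries, and *amyR* (PDE_03964) had 0 or 1 in the Δ*amyR* libraries. Mean *clrB* RPKM was 109.6 in the wild-type on cellulose and 427 in Δ*creA-gpdA*(p)::*clrB*.

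The exo-arabinanase gene PDE_08038 was close to silent without carbon source and on glucose, and was among the more strongly expressed genes on cellulose in every strain. Without carbon source its 3 libraries read 2.27, 3.35 and 3.49 RPKM, that is reads scaled by transcript length and by the reads on genes in the library, from 23, 31 and 33 reads. On glucose they read 1.19, 1.49 and 1.8 RPKM, from 12, 14 and 18 reads. On cellulose the wild-type libraries read 574, 588 and 398 RPKM, from 5469, 5555 and 3681 reads. No cellulose library came near any library of the other media. In the 6 libraries without carbon source or on glucose, reads covered 44.2% to 74.1% of the transcript length, against 99.8% or more on cellulose. Its mean of 519.9 ± 106 RPKM (SD, n = 3) on cellulose ranked 255 among the 9832 genes.

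**Figure D1:**
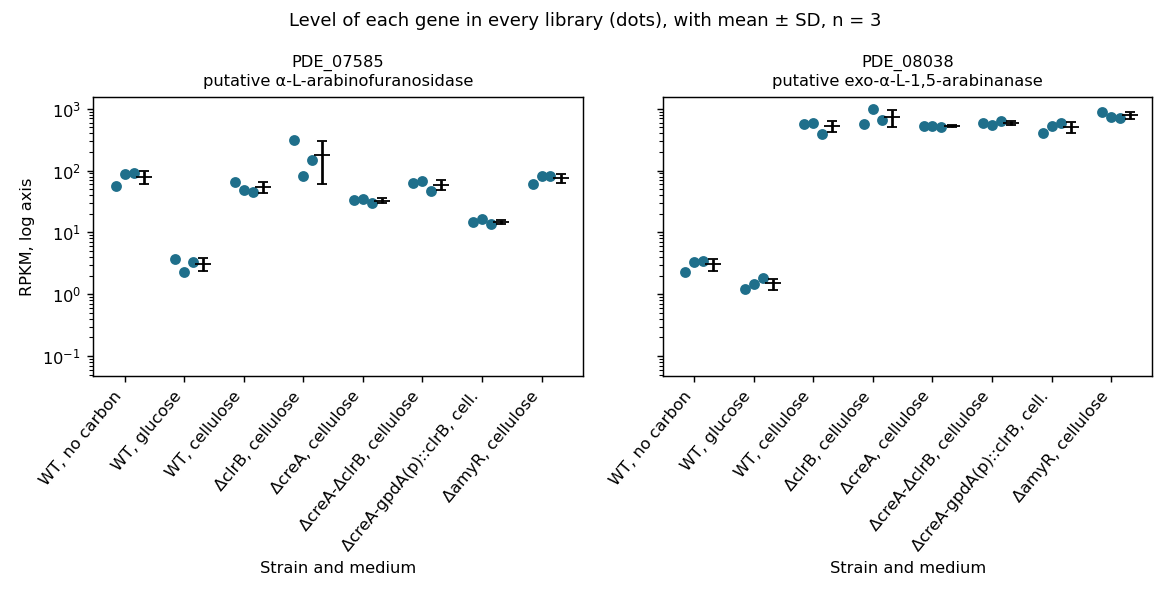
RPKM of PDE_07585 (left) and PDE_08038 (right) in each of the 24 libraries, on a log axis, by strain and medium; dots are libraries and the bar beside them is the mean ± SD (n = 3). PDE_08038 lies at 3.49 RPKM or less in all 6 libraries without carbon source or on glucose. It lies at 398 RPKM or more in all 18 on cellulose. PDE_07585 is lowest on glucose, at 3.69 RPKM or less, followed by Δ*creA-gpdA*(p)::*clrB* on cellulose, at 13.7 to 16.2 RPKM.

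PDE_08038 rose on cellulose against no carbon source by 7.61 ± 0.30 (SE) on the log2 scale, or 195-fold, with an adjusted p of 3.3e-13 (edgeR quasi-likelihood test, Benjamini-Hochberg adjustment over all genes tested). Of all 9176 genes, only 2 had a larger fitted increase. A gene was called changed at an adjusted p under 0.05 and an absolute log2 fold change above 1, and 8.24% of all genes tested were called in this comparison, 3.02% as higher. Against glucose the increase was 8.42 ± 0.31, or 341-fold (adjusted p = 1.8e-14), in a comparison in which 44.3% of all genes were called. Between glucose and no carbon source the difference of −0.80 ± 0.30 (adjusted p = 0.021) was short of the fold threshold, with all 3 glucose libraries below all 3 without carbon source.

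In the wild-type, the arabinofuranosidase gene PDE_07585 was low on glucose only. Without carbon source its libraries read 57.1, 88.1 and 91.8 RPKM. On glucose they read 3.69, 2.31 and 3.32 RPKM, from 29, 17 and 26 reads. On cellulose the wild-type libraries read 65.7, 49.0 and 45.5 RPKM, from 490, 363 and 330 reads. The glucose libraries stood apart below both other media, and the ranges without carbon source and on cellulose overlapped.

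PDE_07585 fell on glucose against no carbon source by 4.44 ± 0.38 on the log2 scale, or 21.7-fold (adjusted p = 2.6e-09; 42.6% of all genes were called in this comparison). It rose on cellulose against glucose by 4.08 ± 0.38, or 16.9-fold (adjusted p = 8.0e-09). On cellulose against no carbon source the difference was −0.36 ± 0.30, with a 95% interval of −0.995 to 0.27 (adjusted p = 0.42). Relative to cultures without carbon source, PDE_08038 was called on cellulose and PDE_07585 on glucose. This contrast has a limit, as PDE_08038 had only 23 to 33 reads per library without carbon source. Its difference on glucose, −0.80, was not called with TMM but was called at −1.01 with library totals.

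Over the 15 pairs of the 6 cellulose groups, PDE_07585 was called in 9 and PDE_08038 in 1, where 2.82% to 29.5% of all genes were called per pair. For PDE_07585 the most distant pair was Δ*creA-gpdA*(p)::*clrB* and Δ*clrB*, at −3.01 ± 0.33, where 29.3% of all genes were called. For PDE_07585 the highest group was Δ*clrB*, where the libraries read 315, 81.3 and 148 RPKM from 2322, 544 and 1127 reads. All 3 lay above the highest wild-type library, but they were up to 3.87-fold apart, the widest spread of the gene in any group. PDE_07585 rose in Δ*clrB* by 1.92 ± 0.31 (95% interval 1.27 to 2.56; adjusted p = 6.5e-04), or 3.77-fold, in a comparison in which 2.82% of all genes were called and 1.7% were called higher. This is the comparison on which the table that annotates the gene was built. Leaving out any 1 library of the comparison gave between 1.35 and 2.26, and the call held each time. When the fit was limited to the Δ*clrB* and wild-type cellulose libraries the adjusted p was 0.055.

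For PDE_08038 the Δ*clrB* libraries read 558, 979.9 and 659 RPKM. The second of them was above every wild-type library, the first was within the wild-type range, and their order was the reverse of that of PDE_07585, whose highest library was the first and lowest the second. The difference from the wild-type was 0.68 ± 0.22, with a 95% interval of 0.23 to 1.13 (adjusted p = 0.075), and was not called. The level on cellulose without *clrB* thus differed from that with it by no more than 1.13 on the log2 scale by this interval, in a gene whose increase on cellulose was 7.61.

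In Δ*creA* PDE_07585 read 33.6, 35.4 and 29.5 RPKM, all below the wild-type libraries. The fitted difference was −0.24 ± 0.31 (95% interval −0.88 to 0.41; adjusted p = 0.61), and −0.70 with library totals, not called, where 11.9% of all genes were called. PDE_08038 read 536, 533 and 499.9 RPKM, inside the wild-type range. Its difference was 0.47 ± 0.21 (95% interval 0.025 to 0.92; adjusted p = 0.11). Neither gene was called on cellulose in the strain without the repressor.

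RPKM and fitted values part here because the fit rescales libraries by TMM, a scaling that centres most genes. Scaled by library totals alone, the median of all genes moved by −0.45 in Δ*creA*, −0.43 in Δ*amyR* and −0.74 in Δ*creA-gpdA*(p)::*clrB* against the wild-type on cellulose. Fitted changes are therefore relative to most other genes of the library. Which scaling fits these strains was not tested.

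**Figure D2:**
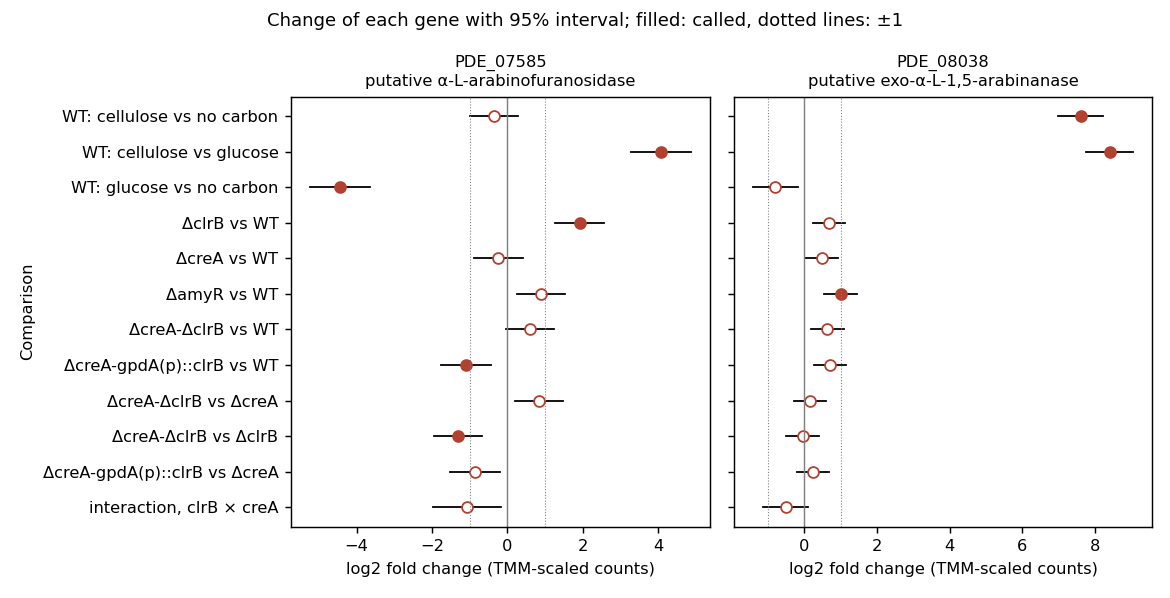
Fitted log2 fold change (x axis, TMM-scaled counts) of PDE_07585 (left) and PDE_08038 (right) in each comparison, with 95% intervals; filled points were called, open points were not, and dotted lines mark a log2 fold change of ±1. The media dominate, with 7.61 and 8.42 for PDE_08038 on cellulose and −4.44 for PDE_07585 on glucose, whereas no strain comparison plotted exceeds 1.92 in size.

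In Δ*amyR* PDE_08038 read 903, 749.7 and 699 RPKM, all above the wild-type libraries. It rose by 1.002 ± 0.22 (95% interval 0.55 to 1.45; adjusted p = 0.0029), at the fold threshold itself, where 7.54% of all genes were called. The call was lost with library totals, at 0.59, and without wild-type library 3 or Δ*amyR* library 1, at 0.83 and 0.88. PDE_07585 read 61.4, 81.8 and 82.8 RPKM, with the lowest inside the wild-type range. Its difference of 0.90 ± 0.31 (adjusted p = 0.042) was under the fold threshold, and it passed without wild-type library 1, at 1.10, or without Δ*amyR* library 1, at 1.03.

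In Δ*creA*-Δ*clrB* PDE_07585 read 62.2, 68.6 and 46.9 RPKM, overlapping the wild-type. PDE_08038 read 592, 543 and 639 RPKM, with the second library inside the wild-type range. Against the wild-type the differences were 0.60 ± 0.31 for PDE_07585 (adjusted p = 0.12) and 0.63 ± 0.21 for PDE_08038 (adjusted p = 0.023). Neither was called, in a comparison in which 16.8% of all genes were.

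Deleting *clrB* in the Δ*creA* background gave 0.84 ± 0.31 for PDE_07585 (adjusted p = 0.038) and 0.16 ± 0.21 for PDE_08038 (adjusted p = 0.59), neither past both thresholds, where 17.1% of all genes were called. Deleting *creA* in the Δ*clrB* background lowered PDE_07585 by a called −1.32 ± 0.31 (adjusted p = 0.0019; 18% of all genes were called). Without Δ*clrB* library 1, the highest for this gene, the value was −0.75 and the call was lost. PDE_08038 differed by −0.048 ± 0.21 in that comparison (95% interval −0.49 to 0.40).

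Whether loss of *clrB* acted differently in the 2 backgrounds was tested as an interaction. It was −1.08 ± 0.43 for PDE_07585 (adjusted p = 0.091) and −0.52 ± 0.30 for PDE_08038 (adjusted p = 0.26), neither called, where 10.6% of all genes were. For PDE_07585 the value ran from −1.43 to −0.51 as single libraries were left out, and it was called at −1.43, without Δ*clrB* library 2.

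In Δ*creA-gpdA*(p)::*clrB* PDE_07585 had its lowest level on cellulose, with 14.9, 16.2 and 13.7 RPKM. These libraries lay below all others on cellulose and above all on glucose. Against the wild-type PDE_07585 fell by 1.09 ± 0.32 (adjusted p = 0.0079; 23.5% of all genes were called), and without wild-type library 1 the value was −0.90 and was not called. With library totals the value was −1.84. Relative to Δ*creA* the difference was −0.85 ± 0.32 (adjusted p = 0.068; 7.39% of all genes were called), which was called at −1.14 with library totals.

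PDE_08038 read 399, 521 and 597 RPKM in Δ*creA-gpdA*(p)::*clrB*, overlapping the wild-type and Δ*creA*. Its differences were 0.71 ± 0.22 from the wild-type (adjusted p = 0.010) and 0.24 ± 0.21 from Δ*creA* (adjusted p = 0.48), and with library totals they turned to −0.040 and −0.049. Neither was called under any scaling. In this strain, which differs from the wild-type by *creA* as well as by *clrB*, PDE_07585 was thus called lower than in the wild-type and PDE_08038 was not called.

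Ordered by mean RPKM, PDE_07585 ran from 3.11 ± 0.714 on glucose through 14.9 ± 1.26 in Δ*creA-gpdA*(p)::*clrB*, 32.8 ± 3.01 in Δ*creA*, 53.4 ± 10.8 in the wild-type on cellulose, 59.2 ± 11.2 in Δ*creA*-Δ*clrB*, 75.3 ± 12.1 in Δ*amyR* and 79.0 ± 19.1 without carbon source to 181 ± 120.2 in Δ*clrB* (SD, n = 3 each). Of the 7 neighbouring pairs in this order, the lowest and the highest were called. The fitted step from Δ*amyR* to no carbon source, −0.54 ± 0.30, went against the order by RPKM and was not called. The step from glucose to Δ*creA-gpdA*(p)::*clrB* was 2.99 ± 0.38 (adjusted p = 1.1e-06), where 35.8% of all genes were called. The step from no carbon source to Δ*clrB* was 1.55 ± 0.31 (adjusted p = 6.8e-04, 11.9% of all genes called), although the RPKM ranges overlapped.

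For PDE_08038 the order was 1.49 ± 0.303 on glucose, 3.04 ± 0.670 without carbon source, 506 ± 99.96 in Δ*creA-gpdA*(p)::*clrB*, 519.9 ± 106 in the wild-type on cellulose, 523 ± 20.1 in Δ*creA*, 592 ± 47.9 in the double deletion, 732 ± 220.4 in Δ*clrB* and 784 ± 106 in Δ*amyR*. The single step called was from no carbon source to the lowest cellulose group, at 8.32 ± 0.30 (adjusted p = 1.2e-14; 32.8% of all genes called). No neighbouring pair among the 6 cellulose groups was called. Of the 15 pairs of these groups the 1 called was Δ*amyR* against the wild-type. The fitted value of Δ*creA-gpdA*(p)::*clrB*, 0.71 above the wild-type, went against the order by RPKM.

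The 2 genes did not keep one ratio. The log2 ratio of PDE_08038 to PDE_07585, on RPKM + 1, in the wild-type averaged −4.29 ± 0.12 without carbon source, −0.71 ± 0.35 with glucose and 3.25 ± 0.26 with cellulose (SD, n = 3). It was therefore PDE_07585 that was the more abundant per length without carbon source and PDE_08038 on cellulose. Among the mutants the ratio ran from 2.18 ± 1.38 in Δ*clrB* to 4.97 ± 0.35 in Δ*creA-gpdA*(p)::*clrB*. It differed between the 8 groups (F = 86.6; permutation test of the F statistic over 100000 resamples, p = 1e-05, the smallest these can give; 2.7e-05 adjusted over 8 such ratio tests). It also differed among the 6 cellulose groups alone (F = 6.27, permutation p = 0.00092, adjusted 0.0015).

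The locus tags just before PDE_08038 also rose on cellulose, and most were called lower on glucose, where PDE_08038 was not called. PDE_08038 had only 23 to 33 reads per library without carbon source, which left little room for a fall. Its values therefore cannot tell whether it differed from these tags on glucose. PDE_08034 and PDE_08035 are annotated as hypothetical proteins, PDE_08036 as a putative β-xylosidase/α-L-arabinofuranosidase and PDE_08037 as a putative β-xylosidase, an enzyme that releases xylose from xylan fragments. These 4, PDE_08038 and PDE_08039, a run of 6 consecutive tags, rose in the wild-type on cellulose against no carbon source, where 3.02% of all genes were called higher. PDE_08034 was taken in because its pattern over the groups was the most like that of PDE_08038, so its rise was fixed by that choice. PDE_08035 was taken in after its values were seen, since it completes the run. Neither is independent evidence of a run, and tags before PDE_08034 were not examined. Whether consecutive tags are adjacent genes on a chromosome was not analysed here.

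Of the tags before PDE_08038, PDE_08034 went from 1.55 ± 0.250 RPKM without carbon source to 41.5 ± 5.53 on cellulose, and PDE_08035 from 100.4 ± 13.3 to 1843 ± 370.0. PDE_08036 went from 46.5 ± 0.730 to 331 ± 24.5 RPKM and PDE_08037 from 8.24 ± 2.67 to 160.1 ± 19.9 (SD, n = 3). Fitted increases were 4.91 ± 0.27, 4.39 ± 0.31, 3.01 ± 0.29 and 4.48 ± 0.32 for PDE_08034, PDE_08035, PDE_08036 and PDE_08037, each below the 7.61 of PDE_08038. On glucose PDE_08035, PDE_08036 and PDE_08037 fell against no carbon source, with −4.72 ± 0.32, −5.40 ± 0.36 and −3.96 ± 0.38. PDE_08034, at 0.897 RPKM on glucose, was not called (−0.59 ± 0.36, adjusted p = 0.15), like PDE_08038. It had 12 to 18 reads per library without carbon source, so it too had little room for a fall.

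In Δ*clrB* on cellulose, where 2.82% of all genes were called, 0 of the 5 tags PDE_08034 to PDE_08038 were called by edgeR, 0 by DESeq2 and 0 by limma, with an unadjusted p under 0.05 for 1 of them, PDE_08038 itself. In Δ*creA*, where 11.9% of all genes were called, 0 of the 5 were called by edgeR and 0 by DESeq2, with an unadjusted p under 0.05 for 3. The fitted values in Δ*creA* were 0.85 for PDE_08034, −0.94 for PDE_08035, −0.10 for PDE_08036 and −0.45 for PDE_08037. With library totals PDE_08035 was called lower there, at −1.41, as it was with limma. The increase was smaller after PDE_08038: PDE_08039, with 7.26, 9.28 and 17.2 mean RPKM in the media without carbon, with glucose and with cellulose, rose by 1.43 ± 0.17 against no carbon source, and PDE_08040, at 8.25, 3.21 and 7.99 RPKM, was not called there. The genes of the run also did not keep a constant ratio: that of PDE_08038 to PDE_08036 went from −3.57 ± 0.27 without carbon source to 0.63 ± 0.28 on cellulose, on the log2 scale (permutation p = 1e-05 over the 8 groups, adjusted 2.7e-05).

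**Figure D3:**
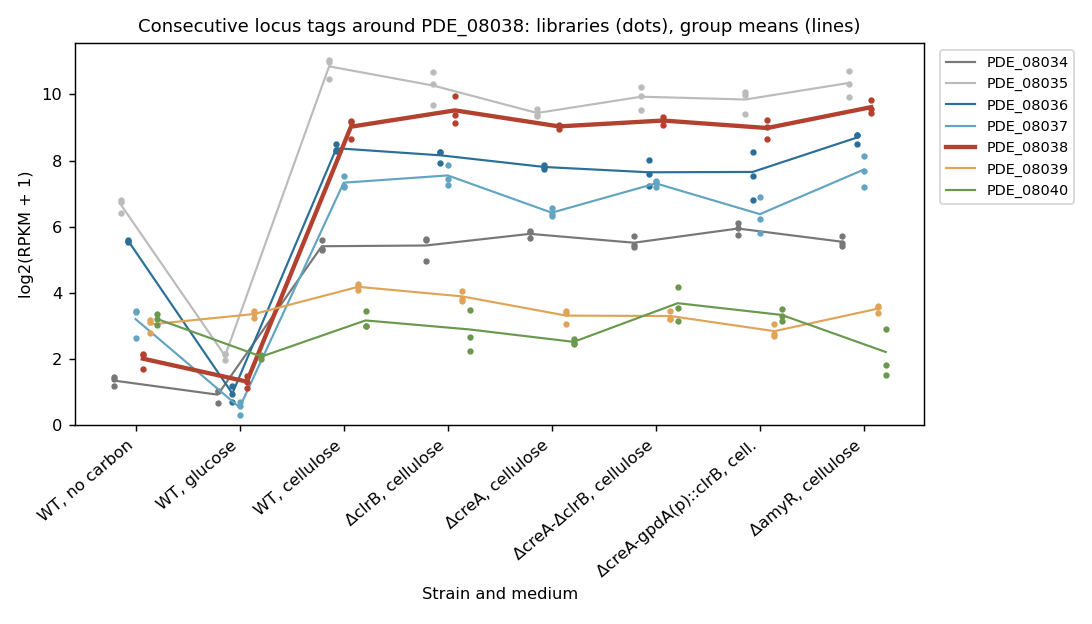
log2(RPKM + 1) of 7 consecutive locus tags, PDE_08034 to PDE_08040, by strain and medium; dots are libraries and lines join group means (n = 3), with PDE_08038 as the thick line. PDE_08034 to PDE_08038 are all higher on cellulose than in the other media, and PDE_08039 and PDE_08040 stay between 1.87 and 18.1 RPKM in all libraries.

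No such run was seen around PDE_07585. PDE_07583 was at 205, 126 and 127 mean RPKM in the media without carbon, with glucose and with cellulose and was not called between any of these media. PDE_07584 had at most 0.603 RPKM in any library and was not tested. PDE_07586 was not called between media either. PDE_07587, at 17.7, 5.97 and 10.98 RPKM, fell on glucose by 1.37 ± 0.14, a smaller change than the 4.44 of PDE_07585.

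Likeness of pattern was measured as Pearson's r of log2(mean RPKM + 1) over the 8 group means, as a description. The 5 genes most like PDE_07585 were PDE_02178 (r = 0.986), PDE_07803 (0.985), PDE_04352 (0.977), PDE_04376 (0.977) and PDE_01336 (0.974). Over the 6 cellulose groups alone r stayed between 0.939 and 0.985. Which genes were most alike depended on the measure: 1 of these 5 was among the 5 most alike over the 24 single libraries, and 3 were with 0.1 in place of 1 added to RPKM. Being alike over the 8 means fixes much of how these genes changed between the groups, so their changes are not counted. PDE_04352, annotated as a hypothetical protein, was at 178, 1.78 and 109 mean RPKM in the media without carbon, with glucose and with cellulose. PDE_07803, a hypothetical protein, was at 239, 14.2 and 239 RPKM, and at 500.0 ± 164 in Δ*clrB* and 55.1 ± 3.63 in Δ*creA-gpdA*(p)::*clrB*. Its libraries in Δ*clrB* had the same order as those of PDE_07585, with 659, 331 and 509.7 RPKM, and those of PDE_04352 did not, with 144, 224 and 471.

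The 5 genes most like PDE_08038 were PDE_08034 (r = 0.991), PDE_03573 (0.991), PDE_03571 (0.984), PDE_03311 (0.984) and PDE_04478 (0.982). PDE_03573 and PDE_04478 are putative endo-β-1,4-xylanases, which cut the xylan backbone, and the others are annotated as hypothetical proteins. PDE_03573 went from 5.27 ± 1.08 RPKM without carbon source to 412 ± 35.9 on cellulose. PDE_04478 went from 43.4 ± 4.49 to 10515 ± 1503 and, unlike PDE_08038, rose in Δ*creA*, by 2.68 ± 0.26. The likeness rests on cellulose against the other media: within the 6 cellulose groups r for these 5 genes lay between −0.514 and 0.582. All 5 were also the most alike over the 24 single libraries and with 0.1 added.

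The other genes annotated as releasing arabinose number 6, of which PDE_00016, PDE_06067, PDE_07080 and PDE_07897 are putative α-L-arabinofuranosidases and PDE_07334 and PDE_08036 putative β-xylosidase/α-L-arabinofuranosidases. All 6 are annotated in the table built on the wild-type on cellulose, as PDE_08038 is and PDE_07585 is not, so that they rose there was fixed by the choice. On cellulose against no carbon source all 6 were called, with a median of 2.78 beside 0.0025 for all genes tested, and against glucose all 6 were called, with a median of 5.24 beside −0.076. On glucose against no carbon source 5 of the 6 fell, where 23.1% of all genes were called lower, and PDE_06067 rose, by 1.34 ± 0.20.

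In Δ*clrB* against the wild-type 0 of the 6 were called by edgeR, 0 by DESeq2 and 0 by limma, where 2.82% of all genes were called, and 3 of them had an unadjusted p under 0.05. In Δ*creA* PDE_00016, PDE_07897 and PDE_06067 rose, by 4.13 ± 0.23, 4.71 ± 0.29 and 3.08 ± 0.22, where 6.43% of all genes were called higher. PDE_00016 went from 173 ± 31.4 RPKM in the wild-type on cellulose to 2196 ± 85.3, PDE_07897 from 99.2 ± 16.2 to 1880 ± 192, and PDE_06067 from 312 ± 30.7 to 1905 ± 78.0. PDE_07334, PDE_07080 and PDE_08036 were not called, like both genes followed here.

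In Δ*amyR* 3 of the 6 were called higher, PDE_00016, PDE_07334 and PDE_07897, against 3.36% of all genes, and with library totals the count was 1. PDE_07334 is also annotated in a table built on Δ*amyR*. In Δ*creA*-Δ*clrB* against Δ*creA* PDE_00016, PDE_07080 and PDE_07897 fell, with −3.53 ± 0.22, −1.67 ± 0.19 and −2.91 ± 0.27, where 7.68% of all genes were called lower, whereas PDE_07585 and PDE_08038 had the positive values given above. In Δ*creA-gpdA*(p)::*clrB* PDE_00016, PDE_06067 and PDE_07897 rose against the wild-type, by 4.73, 3.33 and 4.75, where 11.3% of all genes were called higher, and 0 of the 6 were called against Δ*creA* by edgeR or DESeq2, with an unadjusted p under 0.05 for 3, whereas limma called 1 lower. PDE_07334 was at −0.43 ± 0.31 against the wild-type there and was not called, but it was called lower, like PDE_07585, with library totals, at −1.17, with limma, and without Δ*creA-gpdA*(p)::*clrB* library 3.

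**Figure D4:**
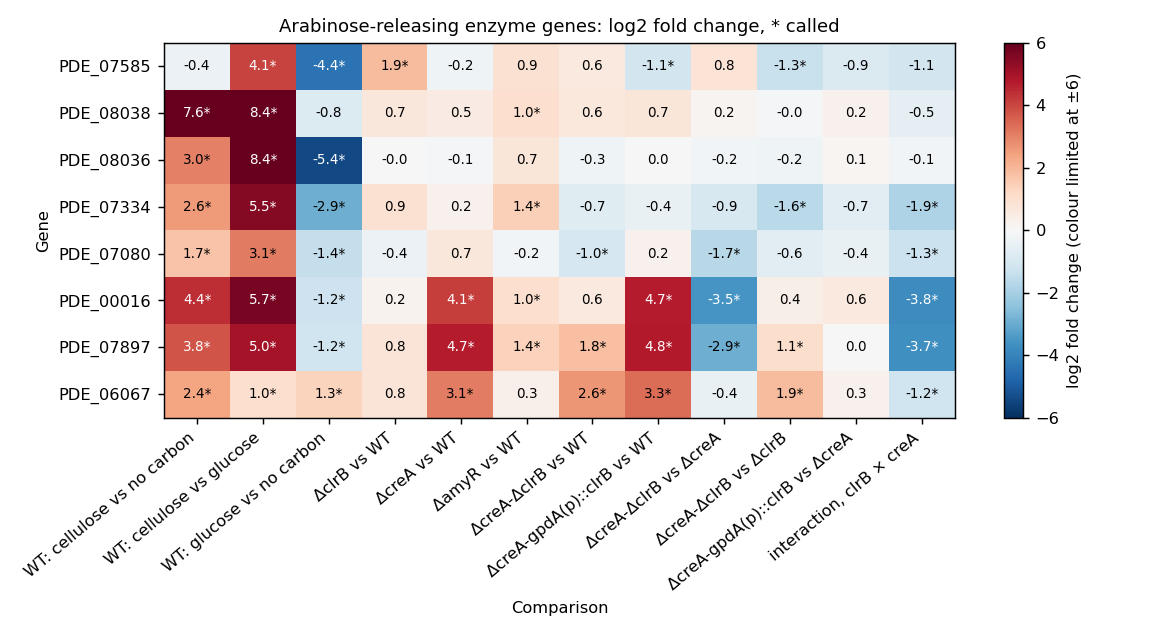
Fitted log2 fold change of the 8 genes annotated as releasing arabinose (lines) in each comparison (columns); red is higher and blue lower, with colour limited at ±6, and an asterisk marks a called change. On cellulose against no carbon source 7 of the 8 genes, all taken from a table built on that medium, rose and PDE_07585, at −0.36, was not called; in Δ*creA* against the wild-type PDE_00016, PDE_07897 and PDE_06067 rose and PDE_07585 and PDE_08038 were not called.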

How the data were processed

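Libraries from mycelia of *P. oxalicum*, 24 in all, were sequenced on an Illumina platform by the authors. They used CASAVA 1.8 per the submitters' processing notes. They mapped reads with SOAP2 (version not given in the sources used here) to predicted transcripts of strain 114-2. The deposited table holds a raw count of uniquely placed reads per gene and library. Its RPKM values, made by the authors, are scaled by all unique reads that fell on genes. The deposited coverage is a percent of transcript length under reads, and transcript lengths are other values of the table that the authors took from their annotation. Entries listed as "-" were read as 0 reads. Differential expression columns of the authors were not used here.

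Libraries were grouped by the labels. The filter required 1 RPKM or more in 3 or more libraries and kept 9176 genes. Counts were fitted with edgeR 4.0.16 (TMM scaling, quasi-likelihood test) in 1 model of 24 libraries and 8 group means, in R 4.3.3. Calls required a Benjamini-Hochberg adjusted p under 0.05 and an absolute log2 fold change above 1. The SE of an edgeR value was derived from its test, as the absolute log2 fold change over the square root of F. The 95% intervals use this SE and the t distribution of the fit, and are approximate. Alternatives were DESeq2 1.42.0, limma 3.58.1 on log2(RPKM + 1) and log2(RPKM + 0.1), median-ratio scaling, library totals, no filter, only the groups compared, a replicate block and leaving out each library. Tables were prepared with pandas 2.3.3 and scipy 1.17.1. The fits were tested on simulated data with a single dispersion and as many genes raised as lowered. That simulation does not test which scaling fits these strains.

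Total counts, on average 7515861 to 8452897 reads on genes per library in a group, limit the precision of low values, such as the 12 to 33 reads on PDE_08038 off cellulose. The closest replicates still differed by more than sampling noise (a chi-square of 4.5 for each degree of freedom). They were thus not read as the same library sequenced again, and each library counted as a replicate. This check cannot tell separate cultures from separate preparations of the same culture. The labels do not say whether replicates were separate cultures, whereas the paper calls them biological replicates.

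Genes named are the 2 genes followed, the 6 other genes with "arabin" in their annotation, the 5 most alike in pattern to each, locus tags within 2 of either, and the regulators. PDE_08035, and the members named from the lists of xylan backbone and pectin genes, were named after their values were seen. Annotations come from the supplementary tables of the study. The genes followed and the lists of arabinose-releasing, xylan backbone and pectin genes were chosen with earlier results of these data known. The reference table at hand holds another strain and matched 0 of the 2 genes, so no sequence or position is given.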

Additional observations from a re-analysis of the deposited data

Results flagged for a closer look

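With TMM scaling, 5 of the 6 other arabinose-releasing genes were called for the interaction of *clrB* and *creA* deletion, all on cellulose. The test was the edgeR quasi-likelihood test with Benjamini-Hochberg adjustment, and 10.6% of all genes were called. For these genes it was not examined under the alternatives or without single libraries. The median of this interaction over all genes was 0.011 with TMM and 0.21 with library totals. For PDE_00016, a putative α-L-arabinofuranosidase, the change on *clrB* loss in Δ*creA*, less that in the wild-type, was −3.76 ± 0.30 on the log2 scale (adjusted p = 8.9e-08): loss of *clrB* gave 0.22 ± 0.20 in the wild-type and −3.53 ± 0.22 in Δ*creA*. For PDE_07897, of the same annotation, it was −3.66 ± 0.37 (adjusted p = 1.9e-06), with 0.75 ± 0.26 in the wild-type and −2.91 ± 0.27 in Δ*creA*.

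The other 3 differences were −1.87 ± 0.43 for PDE_07334 (adjusted p = 0.0064), −1.30 ± 0.26 for PDE_07080 (adjusted p = 0.0021) and −1.18 ± 0.28 for PDE_06067 (adjusted p = 0.0074). PDE_08036, next but one to PDE_08038 in its locus tag, was the sixth gene, at −0.15 ± 0.38 (adjusted p = 0.83). PDE_07585, at −1.08, and PDE_08038, at −0.52, were not called.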

How the results depend on the processing

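Of the 24 changes of the 2 genes, all kept direction and call with DESeq2, median-ratio scaling, no filter on low genes and the replicate block. Deviations from the group means had a median r of −0.003 over 84 pairs of same-numbered libraries, over 0.1 in 13. Over 168 pairs with different numbers the median was 0.003, with 40 over 0.1. The numbers were therefore not used to pair the samples, though a median cannot exclude pairing in some groups. With the block PDE_07585 in Δ*clrB* was at 1.89 and PDE_08038 on cellulose against no carbon source at 7.61. Fitting only the groups compared left PDE_07585 at 1.92 in Δ*clrB* and −1.32 for *creA* loss in Δ*clrB*, neither called. With library totals, limma on log2(RPKM + 0.1) and limma on log2(RPKM + 1), in this order, PDE_08038 in Δ*amyR* was at 0.59, 0.61 and 0.60 and lost its call. PDE_08038 in Δ*creA-gpdA*(p)::*clrB* reversed to −0.040, −0.038 and −0.038 relative to the wild-type and to −0.049, −0.068 and −0.068 relative to Δ*creA*, without calls. PDE_07585 in Δ*creA-gpdA*(p)::*clrB* relative to Δ*creA* was called at −1.14, −1.13 and −1.09. PDE_08038 on glucose against no carbon source was called at −1.01 with library totals only. These settings, unlike TMM, do not centre most genes; beyond that the cause was not tested.

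Leaving out single libraries gave 0.79 to 1.10 for PDE_07585 in Δ*amyR*, −1.22 to −0.90 in Δ*creA-gpdA*(p)::*clrB* against the wild-type, −1.66 to −0.75 for *creA* loss in Δ*clrB* and −1.43 to −0.51 for the interaction. For PDE_08038 it gave 0.83 to 1.10 in Δ*amyR* and −0.25 to 0.21 for *creA* loss in Δ*clrB*, which turned positive without Δ*clrB* library 2 (0.21) or Δ*creA*-Δ*clrB* library 2 (0.019). The F of the ratio ran from 63.6 to 188 and kept its call. Counts of called genes were recomputed, after seeing the data, for the 6 other arabinose-releasing genes and PDE_08034 to PDE_08038. They were not recomputed for the interaction or for the xylan backbone and pectin lists. In Δ*amyR* 3 arabinose-releasing genes were called higher, and 1, 0 and 0 with library totals and the 2 limma settings. Low counts limit both genes on glucose, at 12 to 29 reads.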

Other observations

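Of 12 xylan backbone genes (putative endo-β-1,4-xylanases and β-xylosidases) 10 rose on cellulose against no carbon source, where 3.02% of all genes were called higher, with a median of 4.32 beside 0.0025 for all genes tested. PDE_08094 rose by 8.80, PDE_04478 by 8.10 and PDE_03573 by 6.46. These 10 are the ones that the study lists in its table built on the wild-type on cellulose, so this count was fixed by that choice. On glucose against no carbon source 5 of the 12 fell, where 23.1% of all genes were called lower, and in Δ*creA* 8 rose, where 6.43% were called higher, among them PDE_00014 by 7.87 and PDE_02418 by 7.21. In Δ*clrB* PDE_04478 rose by 1.16 and PDE_09710, a putative β-xylosidase, fell by 1.27. PDE_08038, like 10 of these genes, rose on cellulose. In Δ*creA* it was not called, like every gene of the list outside the 8 that rose there, PDE_03573 and PDE_08037 among them.

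Of 11 pectin genes 10 could be tested. On glucose against no carbon source 8 of the 10 fell, where 23.1% of all genes were called lower, with a median of −2.28 beside 0.052 for all genes tested, among them PDE_03289, a putative pectin acetylesterase, by 4.16 and PDE_01896, a putative exopolygalacturonase, by 2.77. On cellulose against no carbon source 1 rose, PDE_06451, a putative α-L-rhamnosidase, by 1.71, with a median over the list of 0.23. PDE_07585 had the same calls between the 3 media as PDE_03289 and PDE_01896, which were named after their values were seen. How many of all genes had these calls was not counted. Only 8.24% of all genes were called on cellulose against no carbon source, so most genes called lower on glucose could share them. In Δ*creA* 4 of the 10 rose, where 6.43% of all genes were called higher, among them PDE_06068, a putative pectate lyase, by 4.57, and PDE_07585 was not called. The other genes of both lists come from tables built on these samples or on proteins secreted by the same strains, and are not independent evidence of direction.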
